A study of Mus musculus with 25 samples.

Results

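The 9 genes described here encode the receptor chains of the type I and type II interferons, the JAK kinases bound to those chains and a pair of the STAT transcription factors they activate. They are Ifnar1, Ifnar2, Ifngr1, Ifngr2, Jak1, Jak2, Tyk2, Stat2 and Stat3. They were chosen by gene symbol and not by a rule on measured values, but with earlier results of these data known. All 9 were among the 13266 genes of the deposited table. RNA-seq was done on total RNA of untreated mouse peritoneal macrophages at Day 0. The genotypes were SAMHD1 RIG-I DKO, SAMHD1 MDA5 DKO, SAMHD1 KO, RIG-I KO and MDA5 KO with 4 libraries each, and WT with 5. SAMHD1 is a dNTP hydrolase and restriction factor, MDA5 (Ifih1) and RIG-I (Ddx58) are cytosolic RNA sensors, and DKO stands for the loss of both named genes. The labels give neither the age of the mice nor the alleles, except that 2 of the 4 SAMHD1 KO titles carry a different name for the SAMHD1 allele. Nothing in the labels ties each library to a mouse of its own, and the p-values then cover only the spread among these libraries, which may be technical.

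Type I interferons bind a receptor made of IFNAR1, which carries TYK2, and IFNAR2, which carries JAK1. Interferon-gamma binds a receptor of IFNGR1, with JAK1, and IFNGR2, with JAK2. The kinases phosphorylate STAT proteins. STAT2 binds IRF9 and, in the complex ISGF3, switches on genes with an interferon-stimulated response element, while STAT3 is the main factor downstream of IL-6 and IL-10 receptors. STAT2 is itself the product of an interferon-inducible gene, so in interferon-exposed macrophages its transcript belongs to both the pathway and its output.

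The promoter of Stat2 is shown because Stat2 had the highest fold change with SAMHD1 loss among the 9 genes. It holds a match to the core of the interferon-stimulated response element, GAAANNGAAA, read on the minus strand, and 2 bases further a match to TTCNNNNGAA, a spacing variant of the STAT element TTCNNNGAA. Capitals mark both matches, at -222 to -213 and at -210 to -201 from the RefSeq start. The sequence is the 250 bases before that start on the plus strand, chr10:128270248-128270497 (RefSeq, build GRCm38.p6).
Stat2: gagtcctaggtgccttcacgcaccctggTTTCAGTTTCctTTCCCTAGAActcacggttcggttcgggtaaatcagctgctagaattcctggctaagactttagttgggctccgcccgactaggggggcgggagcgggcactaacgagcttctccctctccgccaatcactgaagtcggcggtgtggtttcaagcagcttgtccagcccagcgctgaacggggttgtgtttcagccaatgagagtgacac

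The search covered GAAANNGAAA, GAAANNNGAAA, TTCNNNGAA and TTCNNNNGAA on both strands, in windows of 300 bases around the RefSeq starts, for all 9 genes. Stat2 was the only member with a response-element match, against 3.44% of 32851 promoters for GAAANNGAAA and 2.75% for GAAANNNGAAA. STAT-element matches were found in 3 receptor genes, against 8.3% of promoters for TTCNNNGAA and 6.95% for TTCNNNNGAA. They stood in Ifnar1 at -5 to 4, in Ifnar2 at -214 to -206 and in Ifngr2 at -91 to -82, and are shown with 10 bases on both sides to allow comparison with the Stat2 element. These letters were not in the windows of Ifngr1, Jak1, Jak2, Tyk2 and Stat3. A match describes the sequence and is not evidence of binding.
Ifnar1: ggcgggggcgTTCACGGAAggggcggggc
Ifnar2: tgccaaggccTTCCTGGAAgaagagagta
Ifngr2: ggggccgcggTTCCCGGGAAcaccggggaa

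Reads assigned to the genes of the table numbered 25886469 to 39590589 in a library, and 37 to 82 genes were at 0 in a library. Samhd1 was lower in the 3 genotypes without SAMHD1 (log2 fold changes of -2.42, -2.59 and -2.60 against the genotypes with the same sensors), although SAMHD1 KO library 2 and SAMHD1 MDA5 DKO library 3 kept 4767 and 4952 normalized counts of it. Ifih1 was at most 14.9 normalized counts in MDA5-deficient libraries and at least 1411 elsewhere, and Ddx58 at most 303.6 in RIG-I-deficient libraries and at least 1110 elsewhere. The large peritoneal macrophage markers Adgre1 and Gata6 were present throughout, with at least 74937 and 3523 normalized counts. All 10 markers of this type summed to 1.05e+06 in WT library 3 and 1.11e+06 in SAMHD1 KO library 2. In the other libraries they summed to 1.64e+06 to 2.32e+06. Along the first principal component, with 20.3% of the variance, SAMHD1 KO library 2 and WT library 3 lay far from the rest, and they carry the last 2 of the running library codes, whereas the other codes run in order within genotypes, so that code and genotype cannot be told apart. The RIG-I genotypes also differed in other cells: the 5 B cell markers summed to 70.4 to 90.5 normalized counts in SAMHD1 RIG-I DKO and to 61.0 to 78.7 in RIG-I KO, against 109.7 to 3689 in the other libraries, and the 5 mast cell markers to 1.19 to 15.3 and 0 to 16.7, against 18.03 to 1280 elsewhere. In bulk RNA, fewer cells of a type and less RNA per cell cannot be told apart.

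All 9 genes were well expressed, with 1162 to 9897 normalized counts in every library, and all of them passed the filter on low values. Per kb of exon, the order in WT was led by the receptor chains that carry JAK1, Ifnar2 at 2042 ± 265 and Ifngr1 at 1822 ± 379 normalized counts per kb, followed by Jak1 itself at 1195 ± 138 (SD, n = 5). Stat3 had 608 ± 67.5 normalized counts per kb, and Ifnar1, Ifngr2, Tyk2, Jak2 and Stat2 followed at 469 ± 28.7, 405 ± 30.3, 391 ± 50.8, 353 ± 35.8 and 285 ± 53.1 (SD, n = 5). The WT libraries separated Jak1 from Stat3 and Stat3 from Ifnar1, and all other neighbours in that order overlapped. Thus the chains that bind JAK1 were higher per kb than their partner chains, and Jak1 was higher than Jak2 and Tyk2, in each of the WT libraries. Exon lengths are those of the union of annotated exons in GENCODE vM21, and short overlaps with other genes exist for Ifnar2, Jak1, Tyk2 and Stat3, the longest being 554 bases with an antisense gene in Tyk2. The sources used here do not give the strand setting of the counting.

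**Figure D1:**
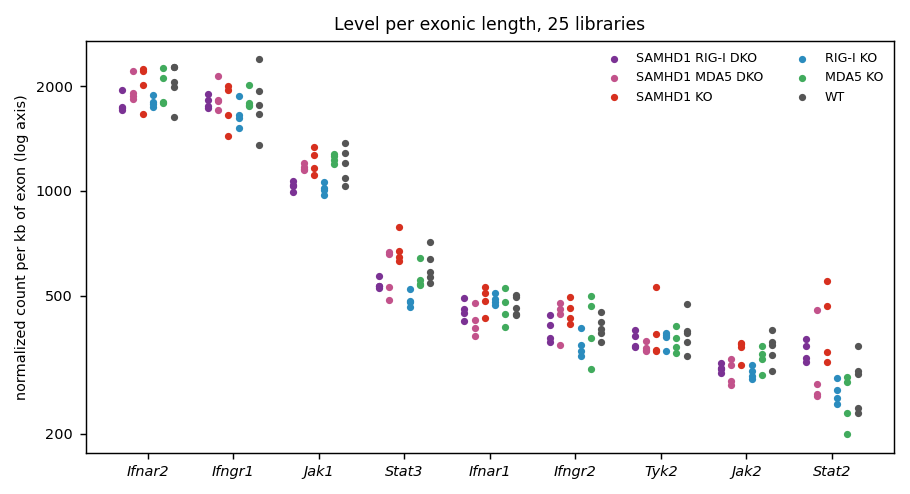
Normalized count per kb of exon (log axis) of the 9 genes in 25 libraries, coloured by genotype. Ifnar2, Ifngr1 and Jak1 lie highest in every genotype and Stat2, with a WT mean of 285 per kb, lowest in WT.

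Spread within genotypes was small for most of the family. The residual SD on the log2 scale was 0.10 for Jak1, 0.11 for Jak2 and 0.11 for Ifnar1, against a median of 0.22 over all genes, and Stat2 had the highest of the 9 at 0.27. In the test for any difference among the 6 genotypes, Jak1 (adjusted p = 0.0389) and Stat3 (adjusted p = 0.0403) passed the threshold of 0.05, which makes 2 of 9 against 9.87% of all genes tested. Stat2 (adjusted p = 0.0507) and Jak2 (adjusted p = 0.0853) missed it. The remaining 5 genes, all 4 receptor chains and Tyk2, had adjusted p-values between 0.361 and 0.888. Jak1 passed in 21 of 36 alternative settings, with adjusted p-values from 0.01003 to 0.0861, and Stat3 in 20 of 36, from 0.0220 to 0.0850. Both calls were lost when any 1 library of SAMHD1 RIG-I DKO or RIG-I KO was left out. The call of Jak1 was also lost without SAMHD1 MDA5 DKO library 2, SAMHD1 KO library 3, MDA5 KO library 2, 3 or 4, or WT library 1 or 5, and that of Stat3 without SAMHD1 KO library 1, 2 or 4, MDA5 KO library 2, or WT library 1 or 5.

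**Figure D2:**
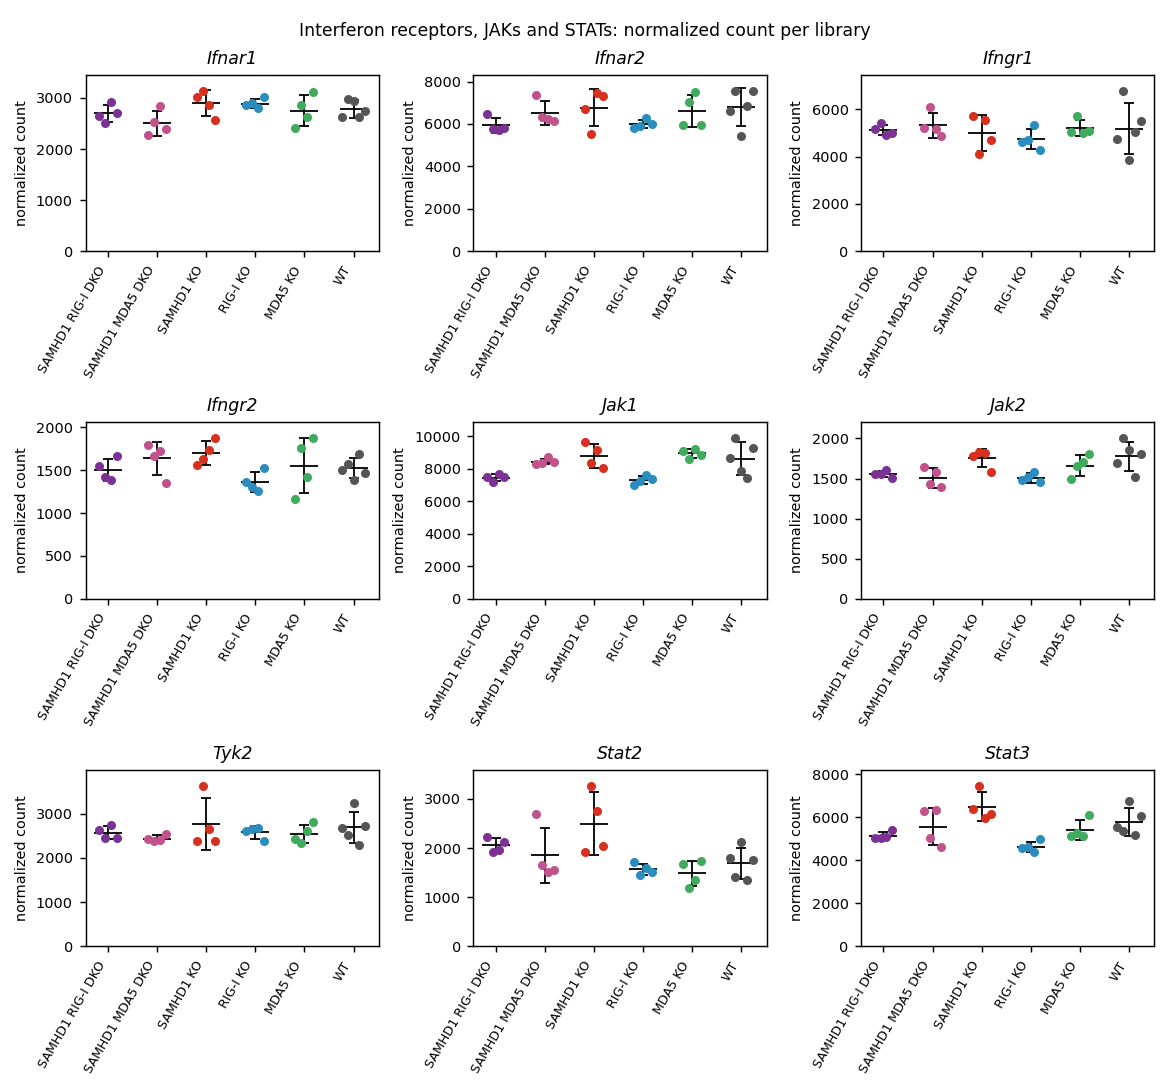
Normalized count of each gene in every library (points), with the mean and SD of each genotype (black bars); axes start at 0. Jak1 and Stat3 have their lowest means in both RIG-I-deficient genotypes, Stat2 has its highest means in SAMHD1 KO (2498) and SAMHD1 RIG-I DKO (2054), and SAMHD1 MDA5 DKO library 1 stands at 2694 above the other libraries of its genotype for Stat2.

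The effect of SAMHD1 loss was read in the 3 pairs of genotypes whose labels differ in SAMHD1 alone, and as their average. Of the 9 genes, 0 passed the threshold in SAMHD1 KO against WT (0.0151% of all genes), 0 in SAMHD1 MDA5 DKO against MDA5 KO (0.00755%), 0 for SAMHD1 RIG-I DKO set against RIG-I KO (0.0679%) and 0 in the average (0.74%) with limma, and the same counts were obtained with voom. At an unadjusted p under 0.05 the counts were 1, 0, 1 and 1, against 4.76%, 3.96%, 3.55% and 7.03% of all genes, and the gene was Stat2 each time. Apart from Stat2, the averaged log2 fold changes of the other 8 genes lay between -0.06 and 0.13, and their 95% confidence intervals between -0.16 and 0.27.

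The receptor chains showed no called difference with SAMHD1 loss. Ifnar1, the low-affinity chain of the type I receptor, had 2561 to 3143 normalized counts in SAMHD1 KO and 2618 to 2984 in WT. Its averaged log2 fold change was -0.06 ± 0.05 (SE, adjusted p = 0.959). Ifnar2, the high-affinity chain, had 5543 to 7437 in SAMHD1 KO and 5412 to 7572 in WT, with an averaged log2 fold change of -0.01 ± 0.06 (SE). In each of the 3 pairs the libraries of both genotypes overlapped for all 4 chains. Ifngr1, the ligand-binding chain of the interferon-gamma receptor, stood at 0.04 ± 0.07 (SE). Ifngr2, its signalling partner, had the highest value of the chains, 0.13 ± 0.07 (SE, adjusted p = 0.768), with single log2 fold changes of 0.16, 0.09 and 0.14. 

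The 3 kinases likewise gave averaged log2 fold changes of -0.01 ± 0.04 for Jak1, -0.03 ± 0.05 for Jak2 and -0.01 ± 0.06 for Tyk2 (SE). The 95% confidence interval for Jak1 ran from -0.10 to 0.09, the narrowest of the family. Tyk2, the kinase on IFNAR1, had 3631 normalized counts in SAMHD1 KO library 2 and 2375 to 2655 in the other SAMHD1 KO libraries, and 3237 in WT library 3 against 2294 to 2714 in the other WT libraries. These high libraries are those that stood apart on the first principal component.

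Stat2 had the highest log2 fold change of the family in each of the 3 pairs. It had 1915, 3271, 2761 and 2044 normalized counts in SAMHD1 KO, against 1793, 1409, 2129, 1359 and 1760 in WT. The groups overlapped, because WT library 3 exceeded SAMHD1 KO libraries 1 and 4. The log2 fold change was 0.55 ± 0.17 (SE), the 78th smallest p of 13252 genes, with an adjusted p of 0.679. In SAMHD1 RIG-I DKO the values were 2220, 1912, 1965 and 2120, against 1718, 1445, 1591 and 1508 in RIG-I KO. All 4 double-knockout libraries were above all 4 RIG-I KO libraries, as for 2.63% of all genes, with a log2 fold change of 0.39 ± 0.18 (SE, adjusted p = 1.00). Fitted on these 2 genotypes alone, where the spread was lower, the same difference had an adjusted p of 0.0304. That fit called 68 of all genes, against 9 in the main fit. It was the only 1 of 37 alternative settings in which Stat2 passed for this pair. In SAMHD1 MDA5 DKO the values were 2694, 1654, 1520 and 1546, against 1673, 1185, 1360 and 1728 in MDA5 KO, with a log2 fold change of 0.29 ± 0.18 (SE, adjusted p = 0.999). Without SAMHD1 MDA5 DKO library 1 it was 0.10.

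Averaged over the 3 backgrounds, the log2 fold change of Stat2 was 0.41 ± 0.10 (SE, 95% confidence interval 0.20 to 0.62), or 1.33-fold, with an adjusted p of 0.0693. It lay between 0.33 and 0.45 under 36 alternative settings, with adjusted p-values from 0.0354 to 0.160, and passed the threshold in 3 of them. Those were the fits without SAMHD1 KO library 1, without WT library 3 and, chosen after the values were seen, without SAMHD1 KO library 2, WT library 3 and SAMHD1 MDA5 DKO library 1 together (0.33, adjusted p = 0.0359). Leaving out the 2 libraries of intermediate Samhd1 gave 0.39 (adjusted p = 0.0747).

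**Figure D3:**
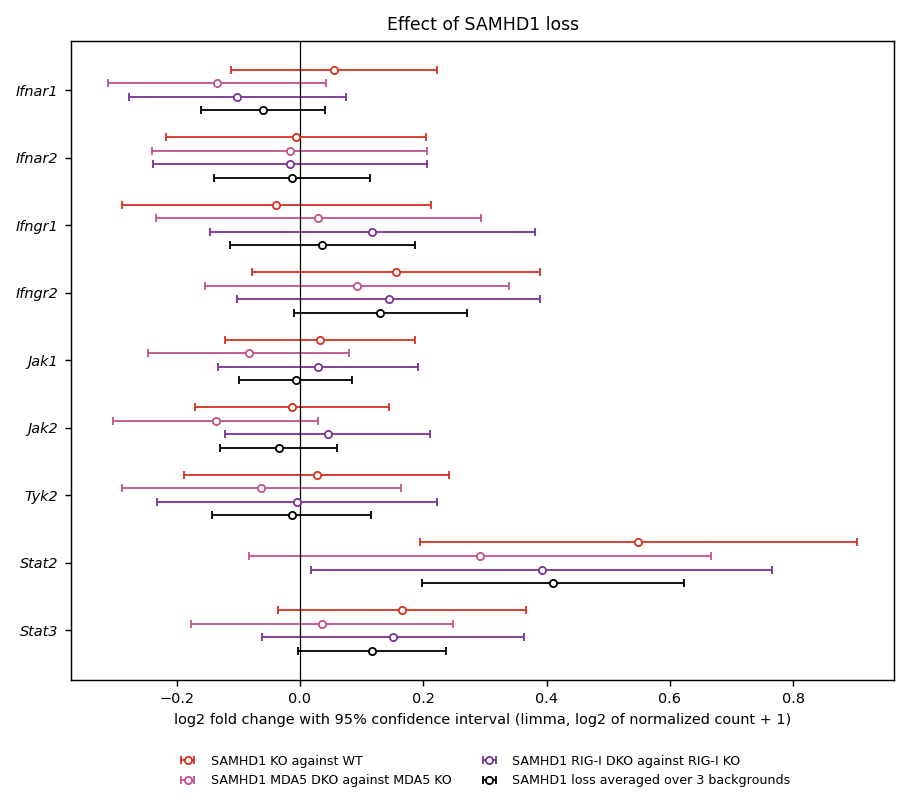
Log2 fold change of each gene with SAMHD1 loss in the 3 pairs of genotypes and on average, with 95% confidence intervals; open points did not pass an adjusted p of 0.05. Stat2 lies to the right of the other 8 genes in each comparison, with an average of 0.41.

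For Stat3, the averaged log2 fold change with SAMHD1 loss was 0.12 ± 0.06 (SE, adjusted p = 0.739), and the single values were 0.17 against WT, 0.04 against MDA5 KO and 0.15 against RIG-I KO. The libraries of SAMHD1 RIG-I DKO, with 5022, 5065, 5078 and 5420 normalized counts, were all above those of RIG-I KO, with 4568, 4602, 4410 and 4978. Stat2 and Stat3 were the 2 of 9 genes with no overlap in that pair, against 2.63% of all genes with all double-knockout libraries higher and 2.3% with all lower.

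With loss of RIG-I, 8 of 9 genes had negative log2 fold changes in each SAMHD1 background, with a median of -0.18 in SAMHD1 RIG-I DKO against SAMHD1 KO (-0.04 over all genes) and of -0.16 in RIG-I KO against WT (0.00290 over all genes). Ifngr1 was positive in the first comparison and Ifnar1 in the second. Of all 13252 genes tested, 7252 were negative in the first comparison and 6573 in the second. With limma, 1 of 9 genes, Stat3, passed the threshold in SAMHD1 RIG-I DKO against SAMHD1 KO, where 10.5% of all genes passed and 4.85% passed as lower. In RIG-I KO against WT, 0 of 9 passed, against 4.21% of all genes, and 0 with voom. There 3 had an unadjusted p under 0.05, against 24.5% of all genes. These comparisons have separate control libraries. The SAMHD1 KO libraries that serve as controls here are the tested libraries of SAMHD1 KO against WT.

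Stat3 had 5022, 5065, 5078 and 5420 normalized counts in SAMHD1 RIG-I DKO, against 6384, 7479, 5972 and 6138 in SAMHD1 KO. Every double-knockout library was below every SAMHD1 KO library, as for 8.28% of all genes as lower, and Stat3 fell by 0.33 ± 0.10 on the log2 scale (SE, adjusted p = 0.0434). The call was kept in 21 of 37 alternative settings and was lost without SAMHD1 KO library 2 (-0.26, adjusted p = 0.126) and in the fit of these 2 genotypes alone (adjusted p = 0.0782). In RIG-I KO, with 4568, 4602, 4410 and 4978, all libraries were below the WT values of 5576, 5389, 6783, 5163 and 6051, as for 7.15% of all genes. The log2 fold change of Stat3 was -0.31 ± 0.10 there (SE, adjusted p = 0.0614).

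Jak1, the kinase shared by both interferon receptors, had 7477, 7185, 7701 and 7518 normalized counts in SAMHD1 RIG-I DKO, against 9632, 8383, 9167 and 8045 in SAMHD1 KO. No library overlapped, as for 8.28% of all genes as lower and 10.4% as higher, and Jak1 and Stat3 were the members without overlap. The log2 fold change of Jak1 was -0.23 ± 0.08 (SE, adjusted p = 0.0564). In RIG-I KO it had 7012, 7253, 7640 and 7377, against 8696, 9897, 7856, 7456 and 9269 in WT. Here WT library 4 lay within the RIG-I KO range, and the log2 fold change was -0.23 ± 0.07 (SE, adjusted p = 0.0684). Jak1 lies on chromosome 4, as does Ddx58, the gene removed in these mice, at a distance of 60.9 Mb; whether the targeted chromosome carries a linked Jak1 allele was not tested. Stat3 and Jak2 lie on chromosomes 11 and 19.

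Jak2, the kinase on IFNGR2, had 1551, 1559, 1606 and 1507 normalized counts in SAMHD1 RIG-I DKO, against 1788, 1834, 1823 and 1585 in SAMHD1 KO (log2 fold change -0.17 ± 0.08, SE, adjusted p = 0.164). It had 1476, 1522, 1584 and 1451 in RIG-I KO, against 1694, 2004, 1854, 1524 and 1810 in WT (-0.23 ± 0.08, SE, adjusted p = 0.0731). In both comparisons a single control library reached into the range of the RIG-I-deficient ones. 

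In the authors' deposited table Jak1, Jak2 and Stat3 were below an adjusted p of 0.05 in RIG-I KO against WT, with values of 0.0166 for Jak1, 0.0337 for Jak2 and 0.0240 for Stat3, among 8.85% of all genes. For SAMHD1 KO over SAMHD1 RIG-I DKO, the direction in which the authors' deposited table gives this pair, it listed log2 fold changes of 0.24 for Jak1 (adjusted p = 0.0158) and 0.34 for Stat3 (adjusted p = 0.0163), so both were lower in the double knockout, among 15% of all genes called. Jak2 stood at 0.18 there (adjusted p = 0.130). For SAMHD1 RIG-I DKO against WT, with 16.1% of all genes called, the authors' deposited table gave -0.21 for Jak1 (adjusted p = 0.0252), while Jak2 at -0.19 (adjusted p = 0.0689) and Stat3 at -0.17 (adjusted p = 0.243) were not called.

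An average of RIG-I loss over both backgrounds was computed after the values of Jak1 had been seen. In it Jak1 fell by 0.23 ± 0.05, Jak2 by 0.20 ± 0.06 and Stat3 by 0.32 ± 0.07 on the log2 scale (SE), with adjusted p-values of 0.00370, 0.00971 and 0.00249. Each of these calls was kept in the 37 alternative settings run. They make 3 of 9 genes, all lower, against 13.9% of all genes called lower and 26.6% called in either direction. All 9 log2 fold changes were negative, with a median of -0.17, against -0.01 over all genes tested. Of those 13252 genes, 6851 were negative. Without WT library 3 and SAMHD1 KO library 2, Ifnar2 also passed the threshold as lower, by 0.27 in SAMHD1 RIG-I DKO against SAMHD1 KO (adjusted p = 0.0343) and by 0.25 in RIG-I KO against WT (adjusted p = 0.0364). Under the same omission Jak1 passed in both comparisons, at adjusted p-values of 0.0289 and 0.0190, and Stat3 in RIG-I KO against WT at 0.0486 but not in SAMHD1 RIG-I DKO against SAMHD1 KO, at 0.0617. Calls over all 13252 genes also rose with this omission. They went from 1388 to 2122 in SAMHD1 RIG-I DKO against SAMHD1 KO and from 558 to 2087 in RIG-I KO against WT.

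B cell and mast cell markers moved with this contrast, as given above: all 5 of each list were called lower with RIG-I loss, with median log2 fold changes of -3.96 and -4.07. Of 10 large peritoneal macrophage markers 3 were called lower, Csf1r by 0.43 ± 0.09, Selp by 0.36 ± 0.06 and Cd14 by 0.31 ± 0.10, and 1 was called higher, Lyz2 at 0.61 ± 0.16 (log2 scale, SE). The 1 measured T cell marker, Lck, and 1 of 2 measured dendritic cell markers, Flt3, were called lower, and 1 of 2 measured neutrophil markers, S100a8, was called higher. The part of these cell markers in the lower Jak1, Jak2 and Stat3 was not tested. Replicates of the RIG-I genotypes also varied less than their controls. The median SD over all genes was 0.14 in SAMHD1 RIG-I DKO and 0.12 in RIG-I KO, against 0.27 in SAMHD1 KO and 0.25 in WT (log2 scale). SAMHD1 MDA5 DKO at 0.17 and MDA5 KO at 0.185 lay between. SAMHD1 KO and WT hold the 2 libraries that stood apart on the first principal component.

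**Figure D4:**
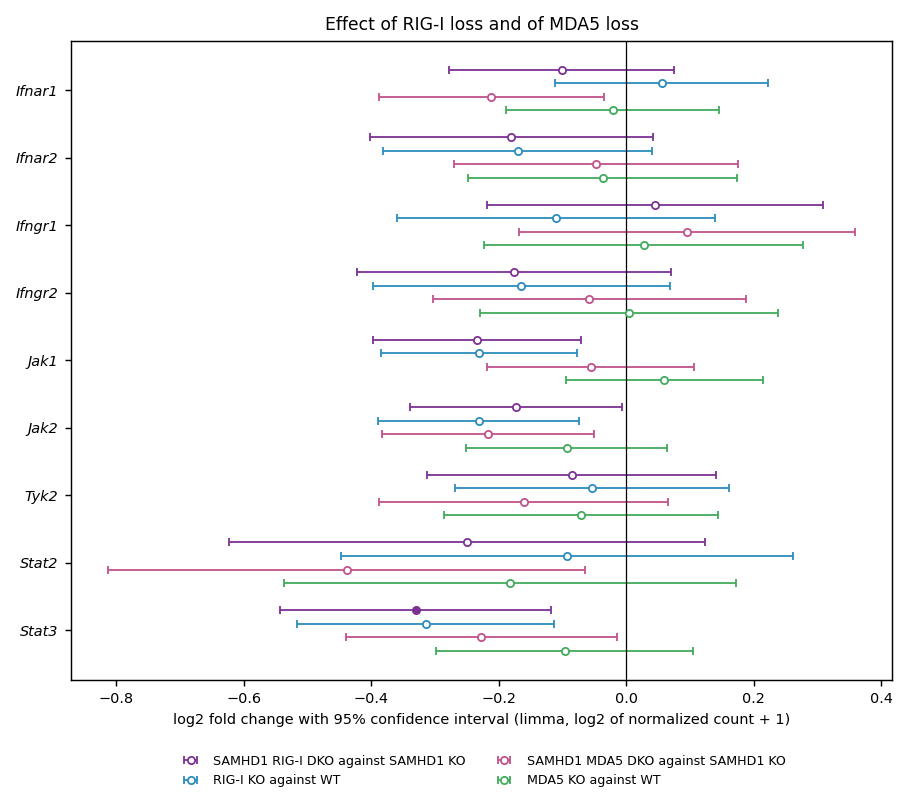
Log2 fold change of each gene with loss of RIG-I and of MDA5, in the SAMHD1-deficient and the WT background, with 95% confidence intervals; filled points passed an adjusted p of 0.05. In each RIG-I comparison 8 of 9 genes lie left of 0, and the filled point is Stat3 at -0.33. Of all 13252 genes tested, 7252 were negative in SAMHD1 RIG-I DKO against SAMHD1 KO and 6573 in RIG-I KO against WT.

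Loss of MDA5 gave no called difference in the family. The counts with limma were 0 of 9 in SAMHD1 MDA5 DKO against SAMHD1 KO (0.121% of all genes) and 0 of 9 in MDA5 KO against WT (0.0679%), as with voom, and 4 and 0 genes had an unadjusted p under 0.05, against 23.8% and 5.27% of all genes. The 4 genes were Ifnar1, Jak2, Stat2 and Stat3, all with negative log2 fold changes. Stat2 had the most negative value, with 2694, 1654, 1520 and 1546 normalized counts in SAMHD1 MDA5 DKO against 1915, 3271, 2761 and 2044 in SAMHD1 KO, a log2 fold change of -0.44 ± 0.18 (SE, adjusted p = 0.1503). Without SAMHD1 MDA5 DKO library 1 it was -0.63, and without SAMHD1 KO library 2 it was -0.30. Jak2 stood at -0.22 ± 0.08, Stat3 at -0.23 ± 0.10 and Ifnar1 at -0.21 ± 0.09 (SE, adjusted p-values 0.117, 0.181 and 0.142). Jak1, by contrast with its values under RIG-I loss, had -0.06 ± 0.08 in SAMHD1 MDA5 DKO against SAMHD1 KO and 0.06 ± 0.07 in MDA5 KO against WT (SE). In MDA5 KO against WT the lowest value of the family was that of Stat2, -0.18 ± 0.17 (SE, adjusted p = 0.887). Averaged over both backgrounds, a comparison likewise added after the values were seen, 0 of 9 genes passed against 5.17% of all genes, with 3 at an unadjusted p under 0.05, against 25.9%.

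Whether the effect of SAMHD1 loss differed between backgrounds was tested by interaction. With limma, 0 of 9 genes, 0% of all genes, passed for either sensor, and likewise with voom; 0 of 9 had an unadjusted p under 0.05 in either test, against 2.78% of all genes for MDA5 and 2.83% for RIG-I. For Stat2 the interaction was -0.26 ± 0.25 with MDA5 (95% confidence interval -0.77 to 0.26) and -0.16 ± 0.25 with RIG-I (95% confidence interval -0.67 to 0.36). Both intervals include the full size of the averaged Stat2 effect with a negative sign, so the difference was not resolved at this spread between libraries.

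The remaining pathway genes were read from lists by function, and are given for the average of SAMHD1 loss. These lists were chosen with earlier results of these data known, so their counts beside all genes are a description only. Of 20 type I interferon targets, 20 had a positive log2 fold change and 14 were called higher, as were 0.566% of all genes, with a median of 0.91 against 0.01 over all genes. Examples were Oasl1 at 1.85 ± 0.19, Irf7 at 1.14 ± 0.12 and Isg15, a ubiquitin-like modifier, at 0.92 ± 0.14 (SE). Markers of other cells were examined in the same average. Of 4 measured small macrophage and monocyte markers 1 was called higher, Plac8 by 2.23 ± 0.45 (SE), with a median of 0.41 for the 4. They summed to 10321 to 23966 normalized counts in SAMHD1 KO, against 4090 to 13584.5 in WT. The sums were 10816 to 37152 in SAMHD1 MDA5 DKO, against 9776 to 13616 in MDA5 KO. In SAMHD1 RIG-I DKO they were 8082 to 13133, against 5365 to 11814 in RIG-I KO. The 5 mast cell markers were all positive and 0 were called with limma, with a median of 0.26. In SAMHD1 KO against WT that median was 1.58, with 4 of 5 at an unadjusted p under 0.05, against 4.76% of all genes. The mast cell sums were 111.0 to 1280 in SAMHD1 KO, against 18.03 to 194.0 in WT. The part of these markers in the levels of the type I targets and of Stat2 was not tested. Stat2, at 0.41, lay below the median of the type I targets and above 1 of them, Bst2 at 0.20. Of 13 measured interferon-gamma targets, 13 were positive and 0 called with limma, 7 of them at an unadjusted p under 0.05, with a median of 0.26. Of 15 measured STAT3 targets, 12 were positive and 0 called, 1 higher and 1 lower at an unadjusted p under 0.05. Over all genes in this average, 52.2% were positive and 7.03% had an unadjusted p under 0.05. Of 11 interferon genes looked for, 0 were in the table, so ligand expression is not analysed here.

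Among the partners of the family, 1 of 7 was called higher. That gene was Irf9, the DNA-binding partner of STAT2, with 2790 ± 250.3 normalized counts in SAMHD1 RIG-I DKO against 2382 ± 159.5 in RIG-I KO, 2977 ± 296.1 in SAMHD1 MDA5 DKO against 2570 ± 220.1 in MDA5 KO, and 3069 ± 141.3 in SAMHD1 KO against 2617 ± 281.9 in WT (SD, n = 4, WT n = 5). Irf9 rose by 0.22 ± 0.05 on the log2 scale (SE, adjusted p = 0.0394), less than the estimate for Stat2 but with a smaller error. Jak3, Stat4, Stat5a, Stat5b, Stat6 and Nmi were not called. Of 13 measured receptors for other cytokines that use JAKs, such as Il10ra, Il6st and Csf2rb, 0 were called with limma. An unadjusted p under 0.05 was found for 1 of them, against 7.03% of all genes.

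Of 13 restraints of the pathway 1 was called, Usp18, the isopeptidase that binds IFNAR2 and displaces JAK1. It had 668.9 ± 115.1 normalized counts in SAMHD1 RIG-I DKO against 299.4 ± 60.1 in RIG-I KO, 540.4 ± 179.6 in SAMHD1 MDA5 DKO against 273.9 ± 118.5 in MDA5 KO, and 673.8 ± 213.2 in SAMHD1 KO against 347.9 ± 54.8 in WT (SD, n = 4, WT n = 5). The averaged rise was 1.03 ± 0.14 on the log2 scale (SE, adjusted p = 0.000175), and Usp18 is also counted among the type I targets. The phosphatases and PIAS proteins had log2 fold changes from -0.03 to 0.11 and were not called. Of 8 SOCS genes, feedback inhibitors of JAKs, 7 were positive, against 52.2% of all genes, and 0 were called with limma. At an unadjusted p under 0.05 there were 2, against 7.03% of all genes. Socs1 stood at 0.47 ± 0.16 and Socs3 at 0.29 ± 0.13 (SE, adjusted p-values 0.315 and 0.595).

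**Figure D5:**
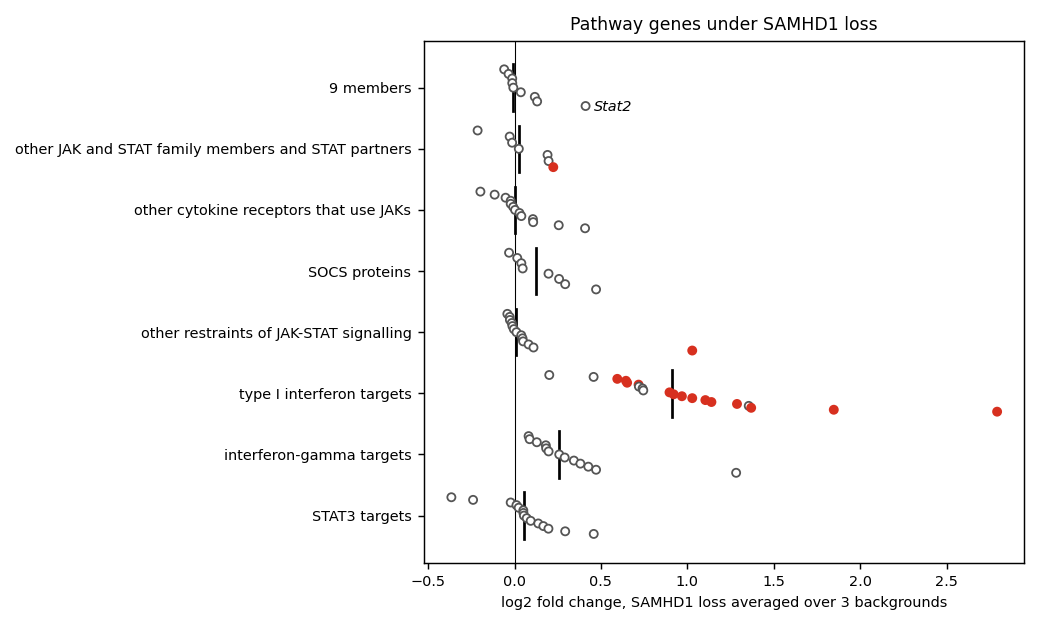
Log2 fold change of each gene with SAMHD1 loss, averaged over 3 backgrounds, by list. Vertical bars are list medians, and red points passed an adjusted p of 0.05. The lists were chosen with earlier results of these data known. The 9 genes centre on -0.01 and Stat2 lies at 0.41, while the type I interferon targets centre on 0.91; Usp18 at 1.03 is the red point among the restraints and Irf9 at 0.22 the red point among the partners.

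With RIG-I loss, averaged over both backgrounds, pathway genes outside the family were called in both directions. Of the 7 partners 4 were called lower and 1 higher, against 13.9% and 12.7% of all genes. Stat4 fell by 0.41 ± 0.09, and Stat5a, Stat5b and Stat6 by 0.14 ± 0.05, 0.15 ± 0.05 and 0.17 ± 0.05, while Nmi rose by 0.25 ± 0.09 on the log2 scale (SE). Of 13 restraints 5 were called lower, among them Pias1, a SUMO ligase that restrains STATs, by 0.31 ± 0.05, and Sirpa, an inhibitory receptor of macrophages, by 0.28 ± 0.06. Of 8 SOCS genes Cish, Socs5 and Socs7 were called lower, by 0.66 ± 0.21, 0.23 ± 0.07 and 0.23 ± 0.07 (SE). Of 20 type I interferon targets 0 were called with limma, with a median of 0.02. With MDA5 loss averaged over both backgrounds, 19 of these 20 were negative, with a median of -0.66. Of all 13252 genes tested, 7250 were negative in that average, with a median of -0.03. There 5 were called lower with limma, against 1.49% of all genes. In MDA5 KO against WT all 20 were negative and 0 called, with a median of -0.51. Of all 13252 genes tested, 6686 were negative in that comparison, with a median of -0.0017.

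Genes whose level followed that of a member over the 25 libraries were named by Pearson's r, which includes differences between genotypes and between libraries of the same genotype, as a description. For Stat2 the 5 with the highest r were Herc6 (0.92), Trafd1 (0.91), Gbp9 (0.91), Slfn8 (0.88) and Sp100 (0.88). Slfn8 and Sp100 were called higher with SAMHD1 loss, by 0.45 ± 0.09 and 0.43 ± 0.06 on the log2 scale (SE, adjusted p = 0.0195 and 0.000263), whereas Herc6, Trafd1 and Gbp9 had 0.39 ± 0.10, 0.32 ± 0.09 and 0.49 ± 0.15 and missed the threshold. The RefSeq promoters of Slfn8 and Sp100 also hold a response-element match, to GAAANNGAAA and GAAANNNGAAA read on the strand opposite to the gene. Those of Herc6 and Trafd1 hold neither. Whether a match goes with the change under SAMHD1 loss was not tested. No promoter of Gbp9 was among those searched. The matches are shown in capitals with 10 bases on both sides, as in the Stat2 promoter above, where the match reads TTTCAGTTTC.
Slfn8: atttgagcagTTTCGTTTTCcccaaaagca
Sp100: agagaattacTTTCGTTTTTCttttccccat

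For the other members the highest r was 0.83 between Ifnar1 and Cers6, 0.90 between Ifnar2 and Cnpy3, 0.87 between Ifngr1 and Retreg3, 0.83 between Ifngr2 and Sting1, 0.90 between Jak1 and Rsbn1, 0.90 between Jak2 and St3gal1, 0.93 between Tyk2 and Med15 and 0.89 between Stat3 and Stk40. For Tyk2 and Med15 the rank correlation (Spearman's rho) was 0.763, and for the other pairs named here it was 0.769 to 0.895. No member was the closest match of another. Among the members themselves, r over the 25 libraries was highest between Jak2 and Stat3 (0.66) and between Jak1 and Jak2 (0.61), and it was 0.52 and 0.53 after the genotype means were removed. With those means removed the highest values were between Tyk2 and Stat2 (0.655), Ifnar2 and Ifngr1 (0.637) and Ifngr1 and Jak1 (0.609). SAMHD1 KO library 2 and WT library 3, which stood apart above, were the highest of their genotypes for both Tyk2 and Stat2. Between the chains of the type I receptor, Ifnar1 and Ifnar2, r was -0.26. Libraries share their sequencing depth, cell makeup and genotype in each of these values.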

How the data were processed

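Total RNA of mouse peritoneal macrophages was sequenced in 25 libraries. GRCm38, mm10, DESeq2, Salmon, STAR and R 4.1.2 appear in the submitters' processing notes, while the labels' protocols name pBWA, bedtools 2.16.2 and Ensembl Gene 61; the sources used here do not tell which of these gave the values. For each library the authors deposited log2 values, with a floor of 5.81. The authors also deposited a signal, the mean normalized count of each group and of all libraries, per the file headers. Log2 fold changes and p-values deposited by the authors were copied for comparison only.

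The log2 values were inverted to normalized counts as a variance-stabilizing transformation; recovered group means matched those deposited to within a relative 1e-09, and after division by what 1 read is worth, 100% of the values lay within 0.01 of a whole number. Columns were assigned to genotypes by name, and library numbers follow the columns and only name a library. No pair of libraries within a genotype agreed within sampling noise.

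With R 4.3.3, limma 3.58.1, using trend, robust and statmod 1.5.0, was fitted to log2 of normalized count + 1 in all 25 libraries, with genotype as the only factor and two-sided tests. Genes needed a normalized count of 10 in 4 libraries, which kept 13252. P-values were Benjamini-Hochberg adjusted over these, with a threshold of 0.05. Adding 1 makes fold changes of low genes smaller. The design allowed for a count test on raw counts; the table held none, so limma's voom on the recovered reads was an alternative. The script was tested on simulated data. Counting error alone is small at these depths; errors given are SDs or standard errors (SE) between libraries.

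The 9 genes, the lists and the settings were chosen with earlier results of these data known. All 9 genes are named in each comparison, as are called list genes and otherwise up to 4 per list; genes most like a member are the 5 (Stat2) or 2 (others) with the highest r, of which the report prints the closest. Comparisons of RIG-I loss and MDA5 loss averaged over backgrounds, and the omission of 3 libraries, were added after values were seen. Figures were drawn with matplotlib 3.10.9. A further family member is not reported here.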

Additional observations from a re-analysis of the deposited data

Results flagged for a closer look

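Of 54 groups of 4 or 5 libraries, 6 held a library far from the others of its genotype, where chance gives about 1 in 20. Stat2 had 2694 normalized counts in SAMHD1 MDA5 DKO library 1, against 1520 to 1654 in the other 3 libraries. The same library had 7378 normalized counts of Ifnar2, against 6130 to 6342. Ifnar2 also had 6473 normalized counts in SAMHD1 RIG-I DKO library 1, against 5699 to 5798. Stat3 had 5420 normalized counts in SAMHD1 RIG-I DKO library 4, against 5022 to 5078, and 6115 in MDA5 KO library 4, against 5116 to 5267. Ifngr1 had 5724 normalized counts in MDA5 KO library 2, against 4983 to 5080.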

How the results depend on the processing

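Signs of the 9 genes' values were kept wherever a value was called, and 4219 of their values under alternatives stayed on their side of the threshold, 45 passed it in addition and 47 no longer passed; the cause was not tested. With each library left out in turn, members called ranged from 0 to 4 for any difference among genotypes, 0 to 1 for averaged SAMHD1 loss, 0 to 3 for RIG-I KO against WT, 0 to 2 for SAMHD1 RIG-I DKO against SAMHD1 KO, 3 to 4 for averaged RIG-I loss and 0 to 1 for averaged MDA5 loss, and stayed at 0 elsewhere. Without SAMHD1 KO library 2 and WT library 3, members called were 3 in RIG-I KO against WT and 2 in SAMHD1 RIG-I DKO against SAMHD1 KO. Without the libraries of intermediate Samhd1 they were 1 and 0, and 1 for any difference. Without these first 2 libraries and SAMHD1 MDA5 DKO library 1 they were 3 and 3, 4 for any difference and 1 for averaged SAMHD1 loss. With neither trend nor robust, 1 member was called for any difference and 0 in SAMHD1 RIG-I DKO against SAMHD1 KO; with a minimum count of 50, 2 were called there. Fitted on the compared genotypes alone, 0 were called there and 1, Stat2, for SAMHD1 RIG-I DKO set against RIG-I KO.

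Counts over all genes moved more. For any difference (1308 genes) they were 666 to 2178 with a library left out, 2924 without the 2 libraries apart and 2743 without 3 libraries. RIG-I KO against WT (558 genes) gave 78 to 1253 with a library left out, without RIG-I KO library 2 and without WT library 4, and 2087, 975 and 2159 without the 2 libraries apart, those of intermediate Samhd1 and the 3 libraries, and 1 in the fit of these genotypes alone. SAMHD1 RIG-I DKO against SAMHD1 KO (1388 genes) gave 188 to 2177, without SAMHD1 RIG-I DKO library 2 and without WT library 3, and 2122, 548, 2183 and 546 under the same 4 settings. SAMHD1 MDA5 DKO against SAMHD1 KO (16 genes) gave 8 to 1465, the same settings 534, 6, 137 and 4, and a minimum of 50 and voom 8 each. Averaged MDA5 loss (685 genes) gave 17 to 1491, the same settings 428, 122, 331 and 17, and the fit with neither trend nor robust 280. SAMHD1 KO against WT (2 genes) gave 0 to 9, 4 with a pseudocount of 5, 5 with the deposited values, 5 with voom, 1 without the 2 libraries apart and 1 alone. SAMHD1 MDA5 DKO against MDA5 KO (1 gene) gave 0 to 8, 3 with a minimum of 50, 6 and 9 without either pair of libraries and 0 alone. SAMHD1 RIG-I DKO relative to RIG-I KO (9 genes) gave 0 to 13, 68 alone and 14 without 3 libraries, and MDA5 KO against WT (9 genes) 6 to 11 and 2 alone. Averaged SAMHD1 loss (98 genes) gave 69 to 109 and averaged RIG-I loss (3519 genes) 2837 to 3870. No paired analysis was possible because the column names carry no replicate number.

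With 4 or 5 libraries a genotype, the 95% confidence intervals of single comparisons span 0.31 to 0.75 log2 units for these 9 genes.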
